A study of Mus musculus with 9 samples.

Results

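The proteasome subunit genes of mouse gastrocnemius, the large fast-twitch muscle of the calf, are described here at 6, 15 and 21 months of age. Members were all rows of the deposited gene table whose symbol is Psm followed by a letter from a to g and a number, except Psmb8, Psmb9 and Psmb10, which encode the immunoproteasome. The rule found 48 of 17314 genes. By role, 16 belong to the 20S core, 17 to the 19S cap, 7 are assembly chaperones and 5 are other regulators of the core. The other 3, Psmc3ip, Psme3ip1 and Psme2b, carry matching symbols but encode no proteasome subunit of these lists. Each age had 3 libraries, each from a separate mouse per the design text, so the spread between replicates is a spread between mice. The labels used here name tissue and age, and give no strain, sex, genotype or treatment. The labels call the 3 ages youth, mid and old. Replicates are numbered as in the labels, and values below are listed in the order of those numbers. The labels give the numbers no other meaning.

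The 26S proteasome is the machine that destroys proteins tagged with ubiquitin. Its core is a barrel of alpha rings, which form the gate, and beta rings, whose inner face cuts peptide bonds; the cap binds ubiquitin chains, removes them, and unfolds the substrate with a ring of ATPases. In skeletal muscle this system breaks down myofibrillar proteins, and its genes are known to rise in fasting, denervation and other states of rapid muscle loss. Subunit genes are known targets of the transcription factor encoded by Nfe2l1, which acts through antioxidant response elements.

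Reference sequence upstream of the member genes is shown first. Whether it bears on the levels described below was not tested. RefSeq promoter windows of build GRCm38.p6, each 250 bases before and 50 bases after an annotated start, were found for 40 of 48 members, 44 windows in all. A gene with more than 1 window counted as holding a motif if any window held it, and both strands were searched. Psmb11 and Psme2b have a window and are counted here, though both failed the filter on low counts described below. The shares set beside the member counts cover tested genes only. Of 13 motifs searched, 3 are described with sequences, and they were chosen after their counts had been seen. Other forms of these 3 are given as counts only. The letters CCGGAAG, a motif of ETS factors, stood in the windows of 9 of 14 cap genes (64.3%) and 1 of 12 core genes (8.33%), against 19.3% of 10375 tested genes with a window. The shorter ETS core GGAAG did not set the classes apart in this way. It stood in 14 of 14 cap genes and 11 of 12 core genes, against 78.8% of tested genes. In the cap genes below CCGGAAG is in capitals, written CTTCCGG where it lies on the other strand. Each stretch is printed 5′ to 3′ on the strand of the gene and ends before the annotated start.
Psmc1 (chr12:100110154-100110200, plus strand): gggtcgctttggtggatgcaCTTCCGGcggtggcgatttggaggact
Psmd2 (chr16:20651606-20651651, plus strand): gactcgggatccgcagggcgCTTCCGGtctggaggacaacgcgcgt
Psmd6 (chr14:14120964-14121010, minus strand): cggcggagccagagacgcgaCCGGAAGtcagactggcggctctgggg
Psmd11 (chr11:80428584-80428614, plus strand): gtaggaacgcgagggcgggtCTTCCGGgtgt
Psmd12 (chr11:107479491-107479527, plus strand): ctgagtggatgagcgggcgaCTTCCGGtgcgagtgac
In Psmc1, Psmd2, Psmd11 and Psmd12 the first base of the motif lay 28, 26, 11 and 17 bases before the start, and in Psmd6 it lay 45 bases before it.

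CCAAT, the box bound by NF-Y, was present in 7 of 12 core genes with a window (58.3%) and 4 of 14 such cap genes (28.6%), against 42.8% of tested genes with one. The 7 include Psmb11, which is not among the tested genes. The contrast depended on the form searched. CCAATC was in 2 of 12 core and 3 of 14 cap genes, against 23.3% of tested genes. GCCAAT was in 6 of 12 and 3 of 14, against 21.9%. The difference between core and cap was not tested. The CCAAT capitals below lie 98, 54 and 43 bases before the starts of Psma1, Psma2 and Psmb3, and Psma1 and Psmb3 hold a second copy further upstream.
Psma1 (chr7:114276190-114276234, minus strand): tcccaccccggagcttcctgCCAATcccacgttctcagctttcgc
Psma2 (chr13:14613168-14613212, plus strand): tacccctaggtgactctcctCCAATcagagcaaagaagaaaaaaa
Psmb3 (chr11:97703371-97703415, plus strand): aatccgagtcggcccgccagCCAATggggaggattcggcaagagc
The core letters of the antioxidant response element, TGACNNNGC, were present in 6 of 40 members (15.0%), a share near the 16.9% of tested genes. A looser form, TGANNNNGC, was in 23 of 40 members (57.5%), against 47.6% of tested genes. By class it was in 9 of 12 core and 6 of 14 cap genes. A stricter form, TGACTCAGC, was in 0 of 40 members, against 0.540% of tested genes. TGACNNNGC is shown for Psmb5 and Psmb6, which encode catalytic subunits, and for the chaperone gene Psmd9.
Psmb5 (chr14:54618014-54618062, minus strand): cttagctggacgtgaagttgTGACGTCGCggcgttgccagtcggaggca
Psmb6 (chr11:70525328-70525356, plus strand): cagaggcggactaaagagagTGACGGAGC
Psmd9 (chr5:123228139-123228187, plus strand): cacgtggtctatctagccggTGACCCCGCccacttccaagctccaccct
These matches describe letters in the reference windows, and binding was not measured in this experiment.

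Levels are given as CPM, that is counts scaled to the size of the library with TMM factors, computed from the estimated counts the authors deposited. Library totals lay between 15354396 and 17317856 counts. Of the 48 members, 45 passed the filter on low counts and entered the test. The 3 that did not were Psma8, an alpha subunit gene known from testis, at 0 to 0.309 CPM, Psmb11, the beta subunit gene of the thymus, with 1 count in all 9 libraries together, and Psme2b, at 0.119 to 0.740 CPM. Psme2b is a near copy of Psme2. Estimated counts of Psme2 alone were whole in 0 of 9 libraries and those of both together in 8 of 9, within 0.005 of a whole number, so the authors' counting split reads between them and both values are uncertain. Markers of fast muscle fibres (7 of 7 in the table, among them Ckm and Myh4) summed to between 103262 and 150686 CPM in every library, which matches the labelled tissue.

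The first principal component of all tested genes held 35.2% of the variance, and 3 libraries lay far out on it: 6 months replicate 2 at -48.0, 15 months replicate 1 at 27.6 and 21 months replicate 3 at 26.7, the other 6 between -9.76 and 12.1. Core, cap and chaperone medians against 6 months are also given without the first of these, as are the fold changes of some genes highest in it. Where no such value is given, the dependence on that library is not reported here.

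No proteasome gene passed the test for a difference between ages. Of 45 members, 0 were called at an adjusted p under 0.05 by edgeR's quasi-likelihood test between 21 and 6 months, where 0.0153% of 13044 genes were called. Between 15 and 6 months 0 were called against 0.00767% of genes, between 21 and 15 months 0 against 0.0%, and over the 3 ages together 0 against 0.0%. At an unadjusted p under 0.05, 1 member (2.22%) passed between 21 and 6 months, against 10.6% of genes, 0 between 15 and 6 months, against 10.3%, 0 between 21 and 15 months, against 1.82%, and 0 over all ages, against 8.55%. DESeq2 also called 0 members in each comparison. In bulk tissue, fewer cells of a type and less RNA per cell cannot be told apart, for this and every later value.

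The intervals of these differences were narrow. Between 21 and 6 months, the 95% interval of the fold change lay within 1.5-fold in either direction for 41 of 45 members, and within 2-fold for 45 of 45. The matching counts were 42 and 45 between 15 and 6 months, and 43 and 45 between 21 and 15 months. Over all 13044 genes, 7816 lay within 1.5-fold between 21 and 6 months. The member with the widest interval at 21 against 6 months was the chaperone gene Psmg4, at 1.502 to 2.34 CPM, whose log2 fold change of 0.07 had an interval from -0.47 to 0.61.

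**Figure D1:**
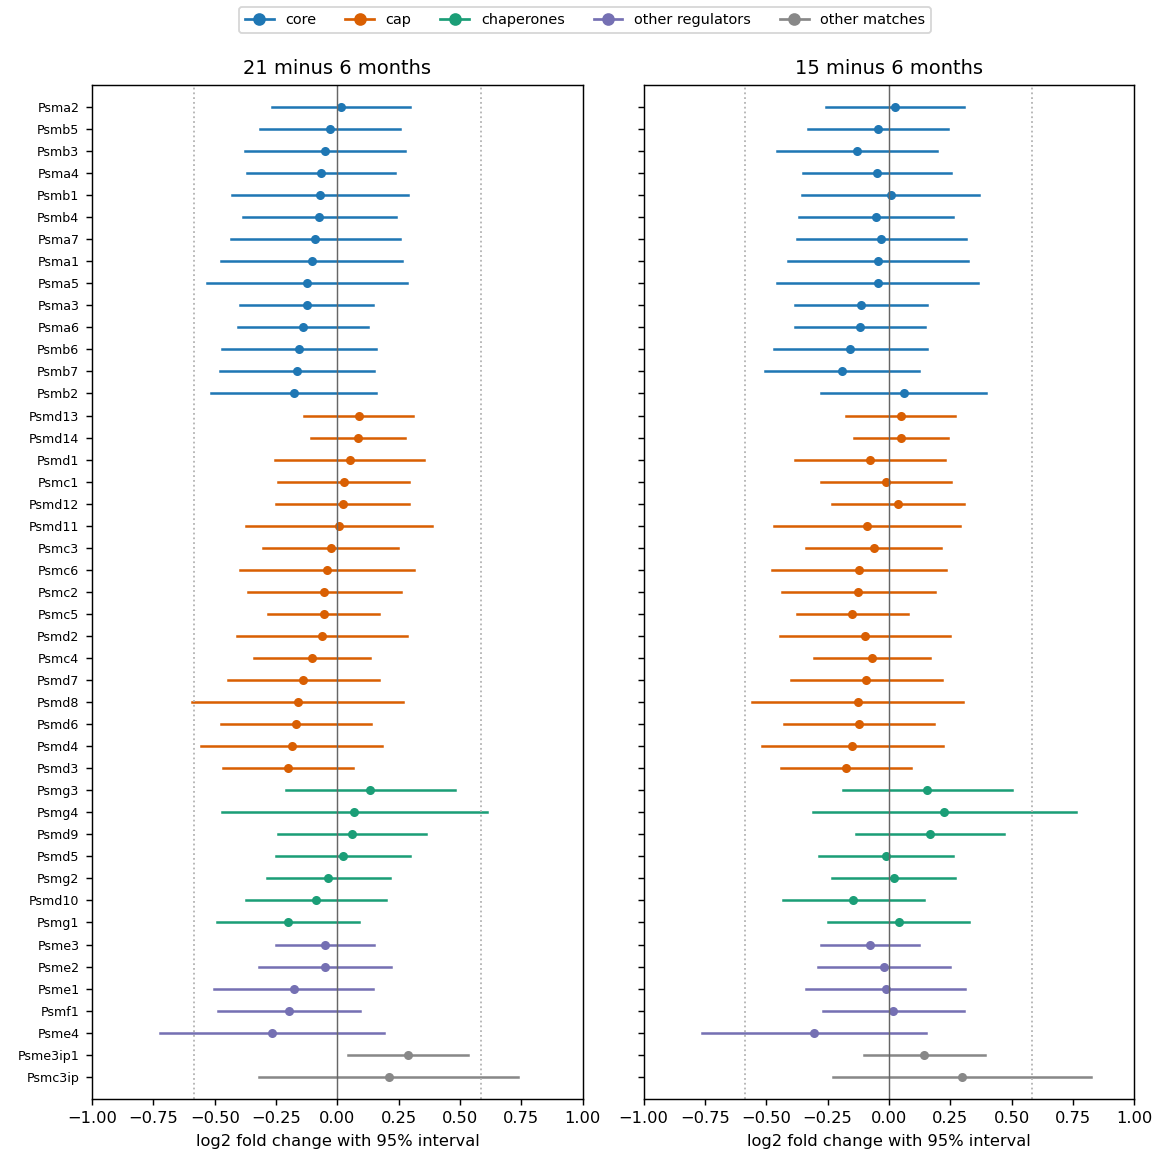
Fitted log2 fold change of each of the 45 tested members (points) with its 95% interval (lines), 21 minus 6 months on the left and 15 minus 6 months on the right, coloured by class; dotted lines mark 1.5-fold. Every interval but that of Psme3ip1 on the left crosses 0, and both panels share the 6-month libraries.

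Among core genes, the median log2 fold change was -0.10 between 21 and 6 months, -0.05 between 15 and 6 months and -0.02 between 21 and 15 months, beside -0.01, -0.01 and -0.00 over all genes. Between 21 and 6 months 13 of 14 core values lay below 0 and none passed the test; without 6 months replicate 2, the median was 0.09 and 13 of 14 lay above 0. With total count scaling, which moved the median of all genes to 0.07, the core median was -0.01 between 21 and 6 months and 0.04 between 15 and 6 months. Between 15 and 6 months it was 0.11 without 6 months replicate 2. Without 6 months replicate 3 the core median was -0.22 between 21 and 6 months and -0.18 between 15 and 6 months. Between 21 and 15 months it was 0.01 without 15 months replicate 3 and 0.03 without 21 months replicate 2. Each comparison with 6 months shares the same 3 libraries, so the 15-month and 21-month values are not separate evidence.

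The proteolytic subunits showed the same picture in single libraries. Psmb5 (chr14:54614120-54617995), which encodes the chymotrypsin-like site, was at 103, 119 and 81.8 CPM at 6 months, 103, 93.9 and 97.7 CPM at 15 months, and 103, 97.5 and 97.0 CPM at 21 months. Psmb6 (chr11:70525324-70527858), for the caspase-like site, was at 107, 153 and 105 CPM at 6 months, 104, 110.1 and 113 CPM at 15 months, and 115, 103 and 109 CPM at 21 months. Psmb7 (chr2:38588046-38643952), for the trypsin-like site, was at 241, 318 and 210.5 CPM at 6 months, 215, 223 and 237 CPM at 15 months, and 239.7, 219 and 227 CPM at 21 months. In all 3 genes the second 6-month library was the highest of the 9, and the groups overlapped at every pair of ages. Their log2 fold changes between 21 and 6 months were -0.03 (SE 0.13), -0.16 (SE 0.14) and -0.17 (SE 0.14), with adjusted p of 0.958, 0.734 and 0.718 by edgeR's quasi-likelihood test. Without 6 months replicate 2 they were 0.10, 0.04 and 0.01.

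Psmb2 (chr4:126677637-126709715), which encodes a beta subunit without a catalytic site, had the smallest p over the 3 ages in the core, 0.310 before and 0.846 after adjustment. It was at 64.7, 84.7 and 52.1 CPM at 6 months, 71.5, 66.1 and 72.3 CPM at 15 months, and 61.6, 56.2 and 60.3 CPM at 21 months. The 21-month libraries all lay below the 15-month ones, with means of 59.4 ± 2.82 and 70.0 ± 3.37 CPM (SD, n = 3), while the 6-month libraries spanned both. Its log2 fold change between 21 and 15 months was -0.24 (SE 0.15, unadjusted p = 0.147), which did not pass edgeR's quasi-likelihood test after adjustment.

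The other core genes were described by their means. Of the alpha subunits that form the gate, Psma1 averaged 112 ± 27.1, 108 ± 9.40 and 104 ± 12.8 CPM (mean ± SD over 3 mice; 6, 15 and 21 months), and Psma7 averaged 95.7 ± 22.3, 93.7 ± 8.62 and 89.9 ± 4.24 CPM. Psma3 stood at 225 ± 34.8, 208 ± 6.37 and 206 ± 18.1 CPM, and Psma6 at 192 ± 30.7, 177 ± 7.33 and 174 ± 9.14 CPM. Differences between these means were smaller than the 6-month SD of each gene. The same held for Psma2 and Psma4, at 21-month means of 93.9 ± 2.93 and 105 ± 7.76 CPM. Among beta subunits without a catalytic site, Psmb1 stood at 108 ± 28.3, 109 ± 6.11 and 103 ± 7.91 CPM, Psmb3 at 103 ± 23.7, 94.1 ± 4.75 and 99.4 ± 6.88 CPM, and Psmb4 at 128 ± 26.3, 123 ± 6.95 and 122 ± 8.08 CPM. Over the 14 core genes the log2 fold change between 21 and 6 months ran from -0.18 for Psmb2 to 0.02 for Psma2.

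**Figure D2:**
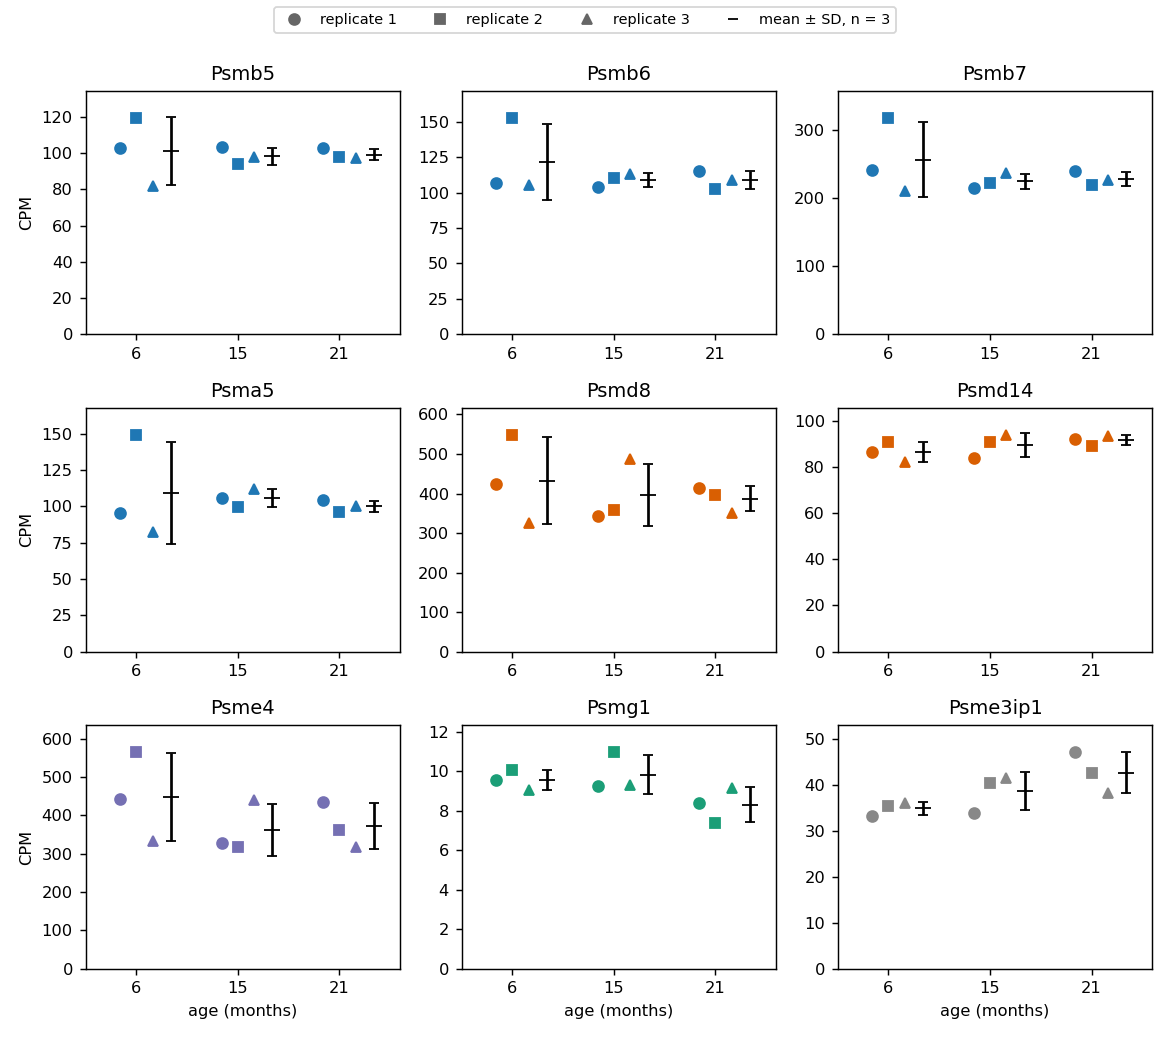
CPM with TMM scaling in each library (points, shaped by replicate number) and mean ± SD over 3 replicates (black), by age in months, for 9 genes, each axis starting at 0. The second 6-month library (square) is the highest point for Psmb5, Psmb6, Psmb7, Psma5, Psmd8 and Psme4, and not for Psmd14, Psmg1 or Psme3ip1.

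Cap genes had median log2 fold changes of -0.05 between 21 and 6 months, -0.09 between 15 and 6 months and 0.03 between 21 and 15 months. Of 17, 11 lay below 0 between 21 and 6 months and none passed; without 6 months replicate 2 the median was 0.10 and 5 lay below 0, and with total count scaling the median was 0.04. Between 15 and 6 months the median was 0.06 without 6 months replicate 2. Without 6 months replicate 3 it was -0.14 between 21 and 6 months and -0.21 between 15 and 6 months. Between 21 and 15 months it was -0.01 without 15 months replicate 1 and -0.02 without 21 months replicate 1. Psmd3 (chr11:98682554-98695978), a lid subunit, had the smallest p over the ages, 0.226 before adjustment. It was at 125, 149 and 108 CPM at 6 months, 109, 108 and 121 CPM at 15 months, and 113, 112 and 107 CPM at 21 months. Only the second 6-month library stood clear of the others, and the log2 fold change of -0.20 between 21 and 6 months (SE 0.12, adjusted p = 0.577, edgeR quasi-likelihood) did not pass. Without that library it was -0.08.

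Psmc5 (chr11:106256185-106263112), an ATPase of the ring that unfolds substrates, was at 125, 143 and 113 CPM at 6 months, 111, 114 and 118 CPM at 15 months, and 124, 117 and 125 CPM at 21 months. The lid gene Psmd6 (chr14:14112185-14120945) was at 209.7, 285 and 211 CPM at 6 months, 204, 213 and 231 CPM at 15 months, and 229.7, 187 and 210.5 CPM at 21 months. For both genes the ages overlapped in each comparison. The widest and the narrowest cap genes were picked after their values were seen. Psmd8 (chr7:29174187-29180673), a lid subunit, was at 424, 548 and 326 CPM at 6 months, 344, 359 and 486 CPM at 15 months, and 413, 397 and 351 CPM at 21 months, a range of 1.68-fold. Psmd14 (chr2:61711694-61800376), the deubiquitinase of the lid that strips chains from substrates, was at 86.5, 90.6 and 82.1 CPM at 6 months, 83.7, 90.7 and 93.8 CPM at 15 months, and 92.1, 89.1 and 93.4 CPM at 21 months, a range of 1.14-fold, the narrowest of the 45 members. The ratio of Psmd8 to Psmd14 CPM, which moves with length only by a constant, was therefore not fixed: it lay between 3.75 in 21 months replicate 3 and 6.05 in 6 months replicate 2.

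Among the other ATPases of the ring, Psmc1 averaged 168 ± 25.1, 167 ± 11.5 and 171 ± 10.6 CPM (mean ± SD over 3 mice; 6, 15 and 21 months), and Psmc6 averaged 213 ± 53.1, 196 ± 8.83 and 207 ± 21.6 CPM. Psmc4 had the narrowest range of the 6 ATPase genes, 1.25-fold over the 9 libraries, and Psmc6 the widest, 1.51-fold. Psmd1 and Psmd2, the large scaffold subunits of the base, had 6-month means of 270.1 ± 39.9 and 369 ± 72.4 CPM and 21-month means of 279.6 ± 18.3 and 353 ± 26.9 CPM. The ubiquitin receptor gene Psmd4 stood at 185 ± 45.1, 166 ± 19.95 and 162 ± 4.25 CPM, so its SD at 21 months was the smallest of the 3. Psmd7, the lid partner of Psmd14, stood at 221 ± 40.9, 208 ± 20.5 and 201 ± 8.26 CPM, and its range of 1.46-fold exceeded that of Psmd14. Over the 17 cap genes the log2 fold change between 21 and 6 months ran from -0.20 for Psmd3 to 0.09 for Psmd13.

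Assembly chaperones guide the subunits together and leave the finished particle. Their median log2 fold change was 0.02, 0.04 and -0.06 between 21 and 6, 15 and 6, and 21 and 15 months, and 0 of 7 passed. Without 6 months replicate 2 the median was 0.05 between 21 and 6 months and 0.10 between 15 and 6 months. Between 21 and 6 months the median lay below 0 without 6 months replicate 1 (-0.02) or replicate 3 (-0.03), without 21 months replicate 1 (-0.03) or replicate 2 (-0.01), and with the filter of at least 5 CPM in 3 libraries (-0.01). Psmg1 (chr16:95979933-95990960), a chaperone of the alpha ring, was at 9.55, 10.1 and 9.07 CPM at 6 months, 9.24, 11.0 and 9.29 CPM at 15 months, and 8.41, 7.40 and 9.14 CPM at 21 months. Its 21-month libraries all lay below its 15-month ones, and the log2 fold change was -0.24 (SE 0.13, unadjusted p = 0.0933), which did not pass edgeR's quasi-likelihood test after adjustment; it was -0.16 without 15 months replicate 2 or without 21 months replicate 2. Psmd9 (chr5:123228190-123250126), a chaperone of the cap base, was at 17.4, 23.7 and 16.7 CPM at 6 months, 21.5, 22.4 and 21.0 CPM at 15 months, and 19.3, 21.8 and 19.02 CPM at 21 months. Psmd10 (chrX:140948425-140956711), which binds an ATPase of the base during assembly, was at 15.4, 16.8 and 12.6 CPM at 6 months, 13.9, 13.8 and 12.8 CPM at 15 months, and 15.4, 12.7 and 14.1 CPM at 21 months. The ages overlapped for both in every comparison. Psmg2, the partner of Psmg1, stood at 28.2 ± 3.08, 28.6 ± 2.47 and 27.5 ± 2.28 CPM (SD, n = 3), and Psmg3 at 5.94 ± 1.07, 6.62 ± 0.496 and 6.52 ± 0.276 CPM. Psmd5, which acts on the base, stood at 30.9 ± 3.61, 30.6 ± 3.96 and 31.3 ± 2.31 CPM.

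Other regulators bind the ends of the core in place of the cap, or hold it in check. Psme4 (chr11:30771775-30881150), for the large single-chain activator PA200, was at 444, 565 and 334 CPM at 6 months, 327, 319 and 441 CPM at 15 months, and 436, 362 and 317 CPM at 21 months. Its highest library was again 6 months replicate 2, and the log2 fold change between 21 and 6 months was -0.27 (SE 0.21, unadjusted p = 0.221, adjusted p = 0.681) by edgeR's quasi-likelihood test. Without that library it was -0.07. Psmf1 (chr2:151716062-151744199), for the inhibitor PI31, was at 21.7, 23.8 and 18.8 CPM at 6 months, 19.3, 24.8 and 21.0 CPM at 15 months, and 17.2, 18.3 and 20.6 CPM at 21 months. Psme1 (chr14:55578494-55581527), for an interferon-inducible activator subunit, was at 37.5, 30.0 and 28.1 CPM at 6 months, 34.5, 31.1 and 29.1 CPM at 15 months, and 27.0, 24.2 and 33.3 CPM at 21 months, with its peak in 6 months replicate 1. Psme3 (chr11:101316213-101323537), for the nuclear activator, was named after its values were seen: it was at 78.6, 80.4 and 67.2 CPM at 6 months, 70.8, 71.7 and 71.6 CPM at 15 months, and 72.2, 72.8 and 73.6 CPM at 21 months. Its 21-month libraries all lay just above its 15-month ones, with means of 72.9 ± 0.687 and 71.4 ± 0.492 CPM (SD, n = 3) and a log2 fold change of 0.03 (SE 0.09).

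The single member below an unadjusted p of 0.05 was Psme3ip1 (chr8:94574940-94601962), which encodes a nuclear protein that binds the Psme3 product and is no subunit. It was at 33.2, 35.4 and 35.9 CPM at 6 months, 33.8, 40.3 and 41.5 CPM at 15 months, and 47.1, 42.5 and 38.1 CPM at 21 months. All 21-month libraries lay above all 6-month ones, the only such member of 45 (2.22%) between these ages, where 16.1% of all genes did not overlap, 7.81% higher and 8.31% lower. The log2 fold change was 0.29 (SE 0.11, unadjusted p = 0.0256, adjusted p = 0.384) by edgeR's quasi-likelihood test. Between 15 and 6 months 0 of 45 members separated, against 13.8% of genes (6.64% higher, 7.14% lower), and between 21 and 15 months 3 did (6.67%: Psme3 higher, Psmb2 and Psmg1 lower), against 6.14% (2.84% higher, 3.3% lower). Psmc3ip, whose product acts in meiotic recombination, was at 1.38 to 2.10 CPM.

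Core and cap genes differed together between mice of the same age. The library of 6 months replicate 2 held the highest value of 14 of 14 core genes and 15 of 17 cap genes, where 20.3% of all tested genes peaked. The exceptions in the cap were Psmd13 and Psmd14, which were highest in 15 months replicate 3. In turn 6 months replicate 3 held the lowest value of 12 of 14 core and 11 of 17 cap genes, against 13.6% of all tested genes. Genes of a library share its RNA and its scaling, so these counts are a description without a test.

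Summed over the 14 tested core genes, the 6-month libraries held 1719, 2242 and 1507 CPM, the 15-month libraries 1717, 1663 and 1786 CPM, and the 21-month libraries 1783, 1594 and 1705 CPM. Cap genes summed to 3260, 4029 and 2824 CPM at 6 months, 3013, 3023 and 3478 CPM at 15 months, and 3396, 3129 and 3141 CPM at 21 months. In both classes the 6-month group spanned the whole range of the other ages. The chaperones summed to 105, 126 and 101 CPM at 6 months, 116, 115 and 107 CPM at 15 months, and 115, 106 and 108 CPM at 21 months. Within the pair of 6-month libraries at the extremes, the median ratio was 1.52 for core genes, 1.38 for cap genes and 1.23 for chaperones, against 0.996 for all tested genes.

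**Figure D3:**
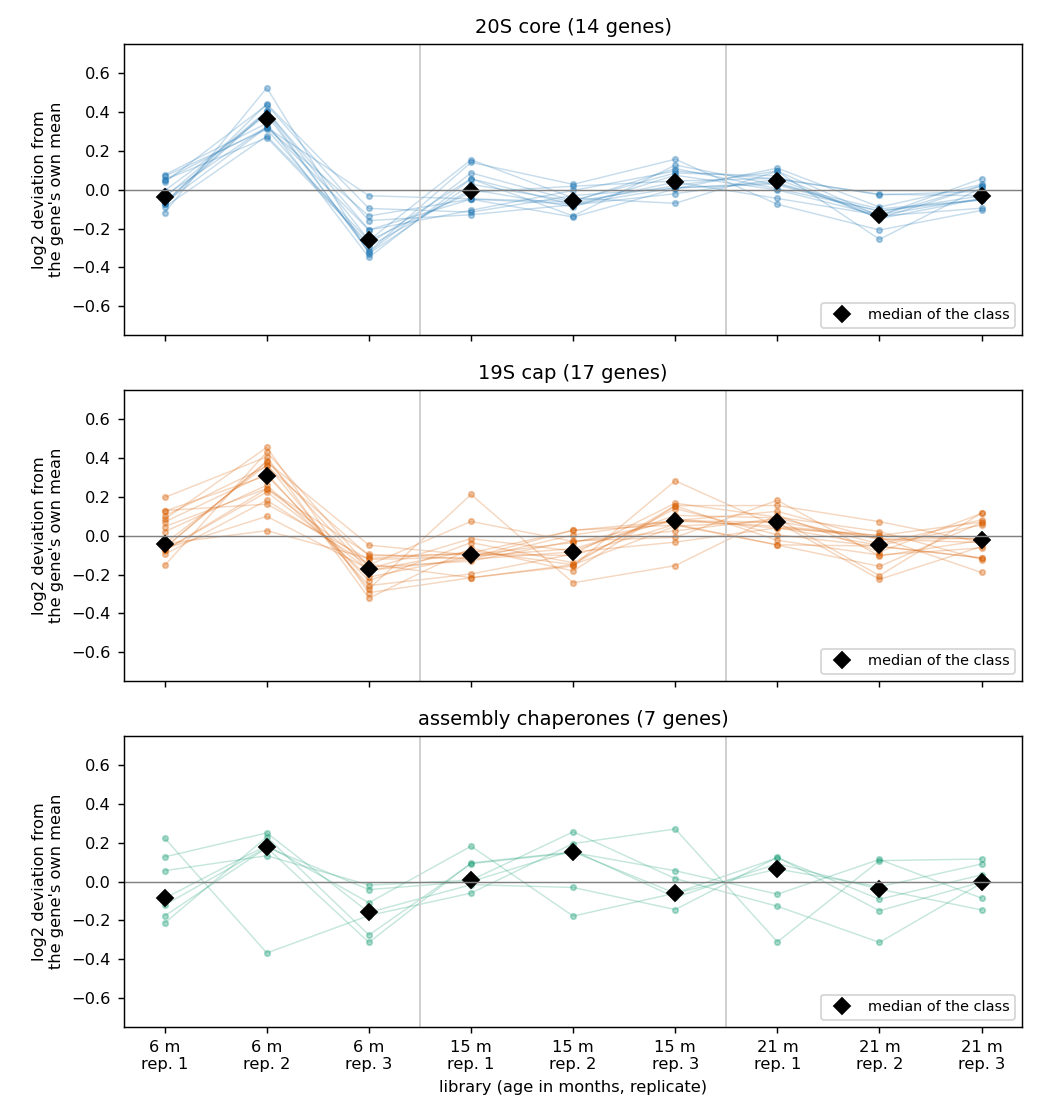
Log2 deviation of each tested gene from its own mean over the 9 libraries (points; faint lines join the values of 1 gene and imply no order), for core, cap and chaperone genes, with class medians (diamonds). In 6 months replicate 2 the medians were 0.36, 0.31 and 0.18, and in 6 months replicate 3 they were -0.26, -0.17 and -0.16.

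The spread between mice was described for each age. The median coefficient of variation of core genes was 21.9% at 6 months, 4.97% at 15 months and 5.52% at 21 months, and it was largest at 6 months in 14 of 14. Cap genes stood at 16.3%, 6.89% and 6.21%, largest at 6 months in 16 of 17, and chaperones at 14.1%, 8.65% and 8.30%, largest at 6 months in 5 of 7. Over all tested genes the medians were 13.2%, 11.2% and 10.6%, with 44.0% largest at 6 months. Without replicate 2 the 6-month medians were 9.98% for core and 6.99% for cap genes, from 2 libraries, against 9.97% for all genes, and that of the chaperones was 3.89%. The difference in spread between ages was not tested.

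**Figure D4:**
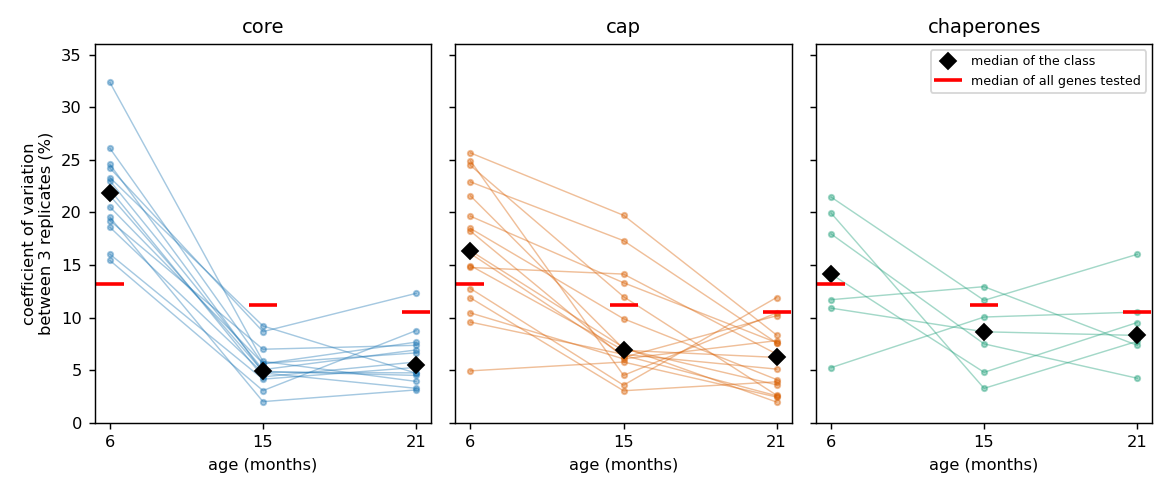
Coefficient of variation of CPM between the 3 replicates of an age, in percent, for each tested core, cap and chaperone gene (points joined by gene), with the class median (diamonds) and the median of all tested genes (red bars). Core medians are 21.9%, 4.97% and 5.52% at 6, 15 and 21 months, and those of all genes lie between 10.6% and 13.2%.

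Psma5 (chr3:108256926-108279952), an alpha subunit, had the widest range of the 45, 1.81-fold, and was picked for it after its values were seen. It was at 95.5, 149 and 82.5 CPM at 6 months, 106, 99.4 and 112 CPM at 15 months, and 104, 96.1 and 99.9 CPM at 21 months. Without 6 months replicate 2 its range was 1.35-fold. Smaller shifts were shared in part. In 14 of 14 core and 17 of 17 cap genes, 21 months replicate 1 exceeded 21 months replicate 2, by median ratios of 1.10 and 1.06. Over all tested genes that share was 51.5%. However, 21 months replicate 3 exceeded 21 months replicate 2 in 13 of 14 core genes but 10 of 17 cap genes. In the cap, 15 months replicate 3 exceeded 15 months replicate 1 in 15 of 17 genes, with a median ratio of 1.12, and in the chaperones in 2 of 7. Over all tested genes it did so in 48.3%.

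Over all 9 libraries, proportions between the parts of the particle moved less than their levels, which were widest at 6 months. Core CPM over cap CPM lay between 0.509 and 0.570 in the 9 libraries, with means of 0.539 ± 0.0155, 0.545 ± 0.0285 and 0.526 ± 0.0168 at 6, 15 and 21 months (SD, n = 3). Both extremes of core over cap fell at the later ages, in 21 months replicate 2 (0.509) and 15 months replicate 1 (0.570). Core sums at those ages ran only from 1594 to 1786 CPM, so the ratio did not move less than the core level there. Alpha over beta CPM lay between 1.04 and 1.09. These sums weigh genes by CPM, which counts long transcripts more, so a ratio is read between libraries and not as a ratio of molecules.

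Markers of fibre types and other cells were also read in the library of 6 months replicate 2. The 7 slow-fibre markers other than Myh2, all in the table and none at 0, summed to 56.3 CPM there, and to 162 and 141 CPM in the other 6-month libraries, 272 to 912 CPM at 15 months and 149 to 831 CPM at 21 months. Among them Myh7, the slow myosin gene, was at 0.438 CPM in this library. Myh2, a fast oxidative myosin gene also on that list, was at 0.751 CPM in it and at 530.0 to 4395 CPM in the others, where it made up 75.4% to 90.9% of the sum over all 8. Endothelial markers (6 of 6, none at 0) summed to 399.7 CPM in it, the lowest of the 9, and to 458 to 623 CPM in the others. Erythrocyte markers (5 of 5, none at 0) summed to 856 CPM in it, 383 and 563 CPM in the other 6-month libraries, 561 to 717 CPM at 15 months and 355 to 828 CPM at 21 months. Fibro-adipogenic markers (6 of 6, none at 0) summed to 1752 CPM in it, 1276 and 1647 CPM in the other 6-month libraries and 1164 to 1343 CPM at the later ages. Whether any of these has a part in the proteasome values was not tested.

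Genes related to the proteasome were examined from lists of 4 kinds. Of 17 tested partners of the particle, 6 ubiquitin and activating-enzyme genes, 12 genes of transcriptional control and 5 muscle ubiquitin ligases, 0 passed the adjusted threshold in any comparison by edgeR's quasi-likelihood test. At an unadjusted p under 0.05, 4 were lower and 0 higher between 21 and 6 months, where 5.5% of all genes were lower and 5.14% higher. Between 15 and 6 months 3 were lower and 1 higher, against 5.38% and 4.91% of genes, and between 21 and 15 months 0 were lower and 0 higher, against 0.736% and 1.08%.

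Trim63 (chr4:134315120-134329629), the muscle ligase MuRF1 that tags myofibrillar proteins, was at 817, 1718 and 392 CPM at 6 months, 332, 298 and 393 CPM at 15 months, and 608, 434 and 256 CPM at 21 months. Fbxo32 (chr15:58175879-58214892), the muscle ligase atrogin-1, was at 1114, 2107 and 225 CPM at 6 months, 506, 392 and 842 CPM at 15 months, and 865, 655 and 382 CPM at 21 months. For both genes the highest library was 6 months replicate 2, the one in which most core and cap genes peaked, and for Fbxo32 the lowest was 6 months replicate 3. Over all tested genes 20.3% peaked in 6 months replicate 2. Fbxo32 was added after its values were seen, and the other tested muscle ligases are not reported singly here. Whether the ligase and subunit values are linked was not tested. Trim63 had log2 fold changes of -1.17 (SE 0.46, unadjusted p = 0.0280, adjusted p = 0.391) between 21 and 6 months and -1.52 (SE 0.46, unadjusted p = 0.00802, adjusted p = 0.341) between 15 and 6 months by edgeR's quasi-likelihood test. Without 6 months replicate 2 these values were -0.49 and -0.83.

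Among the partners, Uchl5 (chr1:143777234-143807466), a deubiquitinase of the cap, was at 38.4, 52.1 and 30.5 CPM at 6 months, 32.4, 29.5 and 29.7 CPM at 15 months, and 35.2, 31.9 and 29.1 CPM at 21 months, with a log2 fold change of -0.40 (SE 0.17, unadjusted p = 0.0377, adjusted p = 0.446) between 15 and 6 months by edgeR's quasi-likelihood test and of -0.18 without 6 months replicate 2. Pomp (chr5:147860628-147875784), the maturation factor of the core, was at 75.2, 78.7 and 62.9 CPM at 6 months, 74.4, 72.2 and 74.99 CPM at 15 months, and 80.0, 72.9 and 76.6 CPM at 21 months. Its log2 fold change between 21 and 6 months of 0.08 (SE 0.10) did not pass, and was 0.15 without 6 months replicate 2 and -0.00 without 6 months replicate 3.

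Of the genes of transcriptional control, the factor gene of the subunits and those with an unadjusted p under 0.05 are given. Nfe2l1 (chr11:96817414-96829968) was at 613, 551 and 442 CPM at 6 months, 622, 533 and 610.1 CPM at 15 months, and 591, 578 and 633 CPM at 21 months. Its highest library was 21 months replicate 3, and its part in the subunit levels was not tested. Nfe2l2 (chr2:75675513-75704663), for the factor NRF2, was at 58.4, 70.3 and 64.3 CPM at 6 months, 68.4, 76.8 and 90.4 CPM at 15 months, and 66.8, 64.1 and 72.1 CPM at 21 months, with a log2 fold change of 0.29 (SE 0.12, unadjusted p = 0.0361, adjusted p = 0.442) between 15 and 6 months by edgeR's quasi-likelihood test and of 0.17 without 15 months replicate 3. Bach1 (chr16:87698954-87733346), for a repressor at antioxidant elements, was at 59.8, 81.9 and 51.6 CPM at 6 months, 52.4, 50.9 and 59.3 CPM at 15 months, and 48.7, 54.3 and 45.8 CPM at 21 months, with a log2 fold change of -0.38 (SE 0.16, unadjusted p = 0.0373, adjusted p = 0.430) between 21 and 6 months by the same test. Without 6 months replicate 2, its highest library, the value was -0.17.

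The 3 immunoproteasome genes left out by the rule were low beside the subunits they replace. Psmb8 (chr17:34198195-34201454) was at 10.2, 8.82 and 6.81 CPM at 6 months, 7.44, 6.78 and 6.70 CPM at 15 months, and 5.89, 7.93 and 8.03 CPM at 21 months. Psmb9 (chr17:34182030-34187330) was at 4.15, 3.19 and 1.72 CPM at 6 months, 2.23, 2.28 and 2.02 CPM at 15 months, and 2.16, 1.79 and 2.22 CPM at 21 months. Psmb10 (chr8:105935728-105938392) was at 10.1, 6.57 and 6.74 CPM at 6 months, 9.86, 8.94 and 5.94 CPM at 15 months, and 8.17, 6.03 and 10.3 CPM at 21 months. Psmb8 and Psmb9 peaked in 6 months replicate 1 and Psmb10 in 21 months replicate 3. The 10 macrophage markers, all detected in every library, summed to 418 CPM in 6 months replicate 1 and to between 129 and 246 CPM in the other 8 libraries; their part in these levels was not tested. As a share of the CPM of their counterparts, Psmb8 stood at 5.72 to 9.92% of Psmb5, Psmb9 at 1.63 to 3.88% of Psmb6 and Psmb10 at 2.07 to 4.59% of Psmb7, not corrected for length. In none of the 3 was 6 months replicate 2 the highest library, as it was for Psmb5, Psmb6 and Psmb7. For Psmb8 and Psmb9, however, only 6 months replicate 1 was higher than it. Psmb10 was at 6.57 CPM there, below its median of 8.17 CPM over all libraries.

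Levels of different genes were compared per length, as CPM per kb of the longest coding GENCODE transcript. Psmd8 at 204 ± 36.8 and Psmb7 at 204 ± 27.9 CPM per kb (SD, n = 9) led and did not separate. Psma6 at 173 ± 17.7 and Psmd6 at 159 ± 19.8 CPM per kb came next, and each of these steps held in all 9 libraries. Core and cap medians were alike at 91.2 and 92.0 CPM per kb, with ranges of 32.2 to 204 and 45.0 to 204. Chaperones had a median of 7.82 CPM per kb, from 3.53 for Psmg4 to 21.6 for Psmg2, so the highest chaperone lay below the lowest core gene, Psma2.

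Neighbours in this order mostly did not separate, and 11 steps between neighbours held in every library. The order also depends on the length used. Per kb of the longest coding sequence the class medians were 147 for core, 127 for cap and 20.4 for chaperones. Psma3, with a longest transcript of 2846 bases and a longest coding sequence of 765 bases, moved from rank 24 to rank 3.

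**Figure D5:**
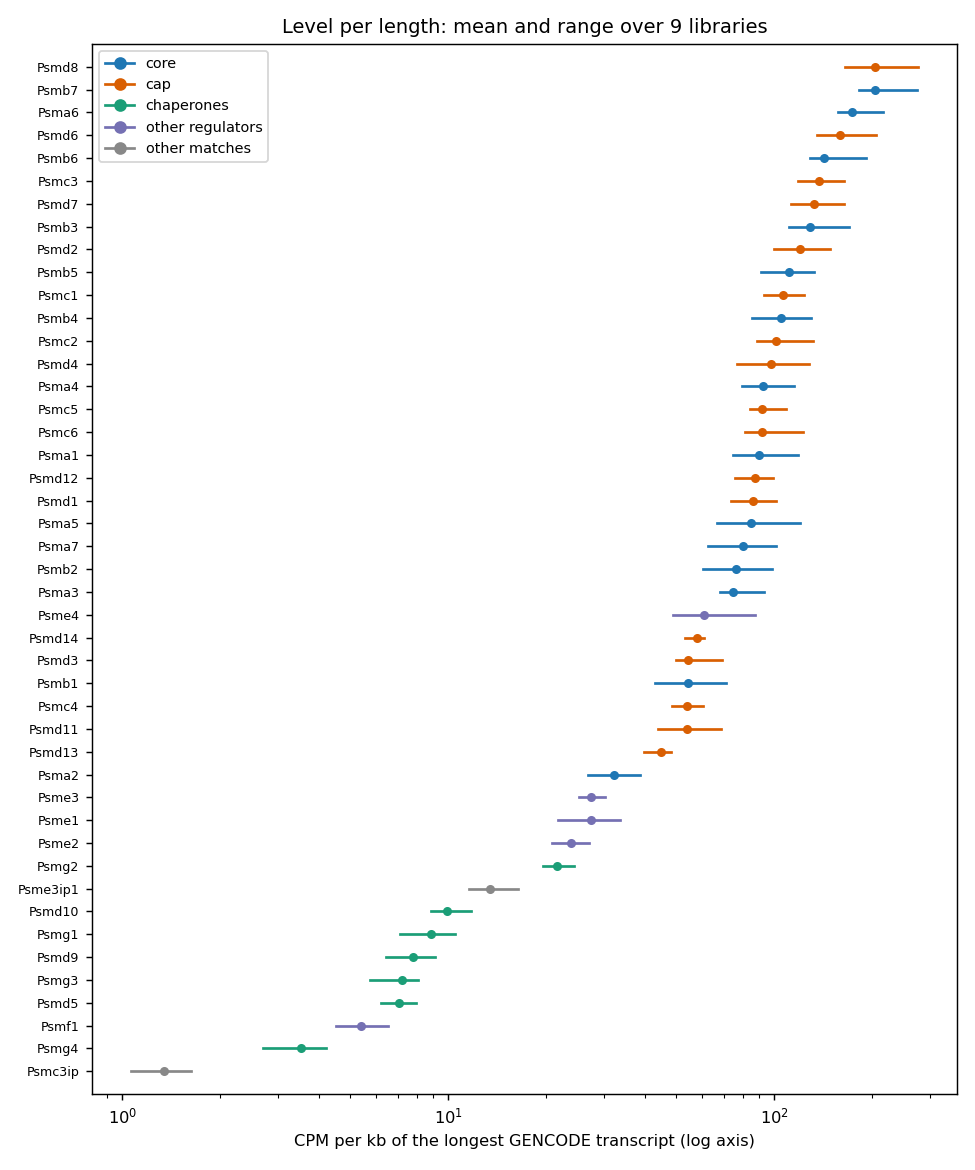
Level per length of the 45 tested members, as the mean (points) and the range over 9 libraries (lines) of CPM per kb of the longest GENCODE transcript, on a log axis, coloured by class. Core and cap genes lie between 32.2 and 204, and the 7 chaperones between 3.53 and 21.6.

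Members lie on 16 chromosomes, and 2 pairs lie within 50 kb of each other: Psmb5 with Psmb11, and Psme1 with Psme2.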

How the data were processed

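The 9 libraries came from gastrocnemius muscle of 9 mice, 3 per age. The labels' protocols name TRIzol extraction, enrichment of messenger RNA on oligo(dT) beads and sequencing of DNA nanoballs. The submitters' processing notes name the genome build mm10. Which aligner and counter were used, and whether strand was used, is not given in these sources. The authors deposited a table of estimated counts for 17314 genes in 9 libraries, of which between 90.0% and 90.7% were whole within 0.005; 0 columns belonged to other samples. Totals of 15354396 to 17317856 counts set the counting precision, and estimated counts are shared between near copies.

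Counts were rounded, filtered with filterByExpr (minimum count 10) and scaled by TMM (factors 0.923 to 1.05), leaving 13044 genes. With edgeR 4.0.16 under R 4.3.3, a quasi-likelihood model with a term for age was fitted over the 9 libraries together, with Benjamini-Hochberg adjustment over all tested genes and a threshold of 0.05. Reported intervals cover 95%. The script was tested on simulated data. Transcript lengths came from GENCODE vM21, and positions and promoter windows from RefSeq GRCm38.p6, the assembly also called mm10; all 48 members had a length and a position.

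Members and gene lists were chosen with earlier results of these data known. Values in every library were given for the 3 members per class with the smallest p over the ages, members with an unadjusted p under 0.05 and separate groups between 21 and 6 months, Psmb5 to Psmb7, the immunoproteasome genes, and related genes with an unadjusted p under 0.05, with Pomp, Nfe2l1 and Nfe2l2; exceptions are named as such, and Fbxo32, Myh7 and Myh2 were also added after their values were seen. Some related genes are counted in their lists but not reported singly here. Paaf1 and Musa1 were not matched by symbol. Alternatives were DESeq2 1.42.0, other scalings, other filters, the replicate block, only the groups compared, leaving out each library, and leaving out the 3 outlying ones.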

Additional observations from a re-analysis of the deposited data

How the results depend on the processing

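No proteasome gene was called in any comparison under any of the 18 settings run, DESeq2 included, and at an unadjusted p under 0.05 between 0 and 6 of the 45 were found between 21 and 6 months. Over all genes, the reported test gave 2 calls between 21 and 6 months, 1 between 15 and 6 months, 0 between 21 and 15 months and 0 over the 3 ages. DESeq2 gave 200, 114, 3 and 204. Total count scaling gave 1 between 21 and 6 months and 0 between 15 and 6 months. Without a filter the counts were 30 between 21 and 6 months and 5 over the ages. With at least 5 CPM in 3 libraries, and with only the 2 groups compared, 0 were called between 15 and 6 months. With the replicate number as a block, 5, 0 and 0 genes were called in the pairwise comparisons in the same order and 5 over the ages, and 0 proteasome genes changed sign. The labels do not say that a number marks a shared litter or day. Same-numbered libraries correlated between -0.42 and 0.41 in their deviations from the age means. With 3 libraries per age these correlations cannot decide it, so whether same-numbered samples share more than a number is not known.

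When each library was left out in turn, the counts ranged from 0 to 42 between 21 and 6 months, 0 to 10 between 15 and 6 months, 0 to 0 between 21 and 15 months and 0 to 10 over the ages, with the highest counts without 6 months replicate 3; the cause was not tested. The core and cap medians against 6 months changed direction without 6 months replicate 2, while the chaperone medians did not. Without it, 21 of 45 proteasome genes changed sign between 21 and 6 months and 22 between 15 and 6 months. The core medians became 0.09 and 0.11 and the cap medians 0.10 and 0.06. Without the 3 outlying libraries the cap medians were 0.11 and 0.10. Total count scaling changed the sign of 14 and 12 genes. A difference of 1.5-fold or more lay outside the interval for 41 to 43 of 45 genes. These intervals are not adjusted for the number of genes tested, so they set no limit of detection at the adjusted threshold. Between 21 and 6 months, the smallest unadjusted p among endothelial markers was 0.000842 by edgeR's quasi-likelihood test, with an adjusted p of 0.135. Which fold change would have been called at this depth and number of mice is not reported here.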
